A study of Mus musculus with 18 samples.

Results

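The growth arrest and p53 response genes described here are 10 protein-coding genes: Cdkn1a, Mdm2, Ccng1, Phlda3, Btg2, Trp53inp1, Gadd45a, Gadd45b, Gadd45g and Plk3. They were taken by symbol, through their Ensembl identifiers in GENCODE vM21, from a table of 47729 genes, and all 10 were found. Liver RNA was sequenced from wild-type (Wt), Il22-/- and Il22bp-/- mice after ischemia-reperfusion (IR), in which the blood supply of the liver is interrupted and then restored, or after sham surgery. Il22 encodes interleukin 22, a cytokine of barrier tissues and liver repair, and IL-22BP is the secreted protein that neutralizes it. Each of the 3 genotypes contributed 3 IR and 3 sham samples, 18 in all. Its columns bear only numbered IR and W headings, 9 of each, and W was read as sham by elimination, on the assumption that each column is a sample of this series. No header gives a genotype, so every comparison sets 9 IR libraries against 9 sham libraries with the genotypes mixed, and neither knockout could be checked in its own gene. The labels give no strain, age, sex, ischemia time or reperfusion time, and do not say whether each sample is a separate animal, so p-values measure the spread between these samples.

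The transcription factor p53 is kept low by the ubiquitin ligase Mdm2, which p53 itself induces, and it accumulates after DNA damage, oxidative stress and other insults. Among its best known targets is Cdkn1a, whose product p21 inhibits cyclin-dependent kinases and holds hepatocytes out of the cell cycle. Several of these genes are also immediate early or cytokine-responsive genes that can be induced without p53, the Gadd45 family, Btg2 and Plk3 among them.

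Promoter sequences are shown first, because p53 binding sites are what the name of this gene group refers to. RefSeq windows of the 250 bases before a transcription start, build GRCm38.p6, covered 9 of the 10 genes with 10 windows, Cdkn1a having 2 starts. Trp53inp1 had no entry. The p53 decamer consensus was searched on both strands with no mismatch, and a full site was defined as 2 decamers separated by up to 13 bases. A decamer was present in 7.13% of all 32851 windows and in the windows of 4 members, Cdkn1a, Mdm2, Ccng1 and Gadd45a. A full site was present in only 21 of all windows (0.0639%), one of them the upstream start of Cdkn1a, where the decamers lie 12 bases apart at positions -73 to -64 and -51 to -42. The window of the downstream Cdkn1a start, chr17:29093519-29093768, held no decamer. The 3 sequences below belong to the member with the steepest increase, to the negative regulator of p53 and to a member that moved the other way. They run 5′ to 3′ on the gene's strand, and capitals mark the p53 decamers.
Cdkn1a, upstream start, chr17:29090729-29090978, plus strand: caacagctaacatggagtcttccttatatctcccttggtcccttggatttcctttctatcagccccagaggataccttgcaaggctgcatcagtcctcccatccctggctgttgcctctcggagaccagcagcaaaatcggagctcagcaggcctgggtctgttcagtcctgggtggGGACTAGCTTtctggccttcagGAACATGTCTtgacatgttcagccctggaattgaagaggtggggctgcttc
Mdm2, chr10:117710759-117711008, minus strand: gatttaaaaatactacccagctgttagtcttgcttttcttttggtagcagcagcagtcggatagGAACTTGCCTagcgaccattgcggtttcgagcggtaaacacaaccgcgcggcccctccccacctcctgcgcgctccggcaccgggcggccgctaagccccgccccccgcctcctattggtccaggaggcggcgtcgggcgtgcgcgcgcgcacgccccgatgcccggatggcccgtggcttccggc
Ccng1, chr11:40755287-40755536, minus strand: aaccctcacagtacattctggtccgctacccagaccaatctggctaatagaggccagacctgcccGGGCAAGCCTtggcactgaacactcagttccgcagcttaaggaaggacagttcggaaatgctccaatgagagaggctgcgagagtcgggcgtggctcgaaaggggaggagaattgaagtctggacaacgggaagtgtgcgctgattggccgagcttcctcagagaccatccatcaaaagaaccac
A decamer was thus found both beside genes that were higher in IR and beside one that was lower. Mdm2 carries it at -186 to -177 and Ccng1 at -185 to -176. A match describes letters and not binding, and sites outside these windows were not searched.

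The Gadd45 genes differed in the motifs of their windows. The TATA box motif, searched as the letters TATAAA on either strand, was found in 12.4% of all windows and, among the members, only in those of Gadd45b (-46 to -41) and Gadd45g (-27 to -22). The 100 bases before the start of these genes are shown with that box in capitals. Both genes responded differently from Gadd45a, but a relation of motif to response was not tested.
Gadd45b, chr10:80929991-80930090, plus strand: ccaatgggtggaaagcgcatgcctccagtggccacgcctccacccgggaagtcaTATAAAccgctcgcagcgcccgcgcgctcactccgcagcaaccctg
Gadd45g, chr13:51846575-51846674, plus strand: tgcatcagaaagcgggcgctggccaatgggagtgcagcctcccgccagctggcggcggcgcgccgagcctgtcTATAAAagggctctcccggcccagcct
The Gadd45a window held no TATAAA but a p53 decamer at -40 to -31. The cAMP response element TGACGTCA, in 1.55% of all windows, occurred only in Btg2 (-166 to -159). The AP-1 motif TGANTCA (6.75% of all windows) and the NF-kB site (3.90%) occurred in no member window, and the GC box GGGCGG (32.7%) occurred in those of 7 members.

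Library depth was even. Recovered read totals ran from 10176617 to 12558179 in IR (median 11271701) and from 10716890 to 12763837 in sham (median 11308483). Liver identity was clear from albumin, which took 12.9 to 15.9% of reads in sham but only 2.86 to 7.48% in IR. Cell type markers moved with surgery as well. Of 11 neutrophil markers 7 had the mean of at least 10 needed for testing, and these 7 were higher in IR. Cxcr2, Retnlg, Ngp and Mmp9 reached that mean only through IR, with sham means of 1.88, 2.27, 2.89 and 5.50. Without this filter 9 of 11 were higher and 0 lower. The summed normalized count of all 11 was 345 to 4163 in IR (median 1221) against 62.1 to 137 in sham. Libraries IR8 (4163), IR5 (2676) and IR7 (2401) had the highest sums. Of 12 hepatocyte markers 9 were lower and 1, Hnf4a, was higher, with sums of 599820 to 955062 in IR against 2035400 to 2447760 in sham. Of 8 endothelial markers 5 were lower and 1 higher, and of 5 erythroid markers tested 1 was lower. Of 11 stellate cell and cholangiocyte markers 8 were higher and 2 lower, and the sums of this list (1639 to 5056 in IR against 1214 to 1903 in sham) were also highest in IR8, IR5 and IR7. No marker of these lists was at 0 in every library of a group. In bulk tissue, fewer cells of a type and less RNA per cell cannot be told apart.

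Normalized counts were compared on the log2 scale after adding 1, with limma across the 12686 genes whose mean was at least 10, and adjusted p-values cover all of these genes. Of the 10 members, 7 were higher in IR, 2 were lower and 1 did not pass an adjusted p of 0.05. IR changed much of the transcriptome, so these counts are read against 38.3% of all tested genes called higher and 37.6% called lower. At a difference of at least 2-fold, 6 members were higher and 2 lower, against 15.5% and 17.0% of all tested genes. The 9 IR libraries lay entirely above the 9 sham libraries for 5 members, against 19.9% of all tested genes, and entirely below for 1, against 20.3%. The median log2 difference was 1.37 over the members and 0.02 over all tested genes.

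**Figure D1:**
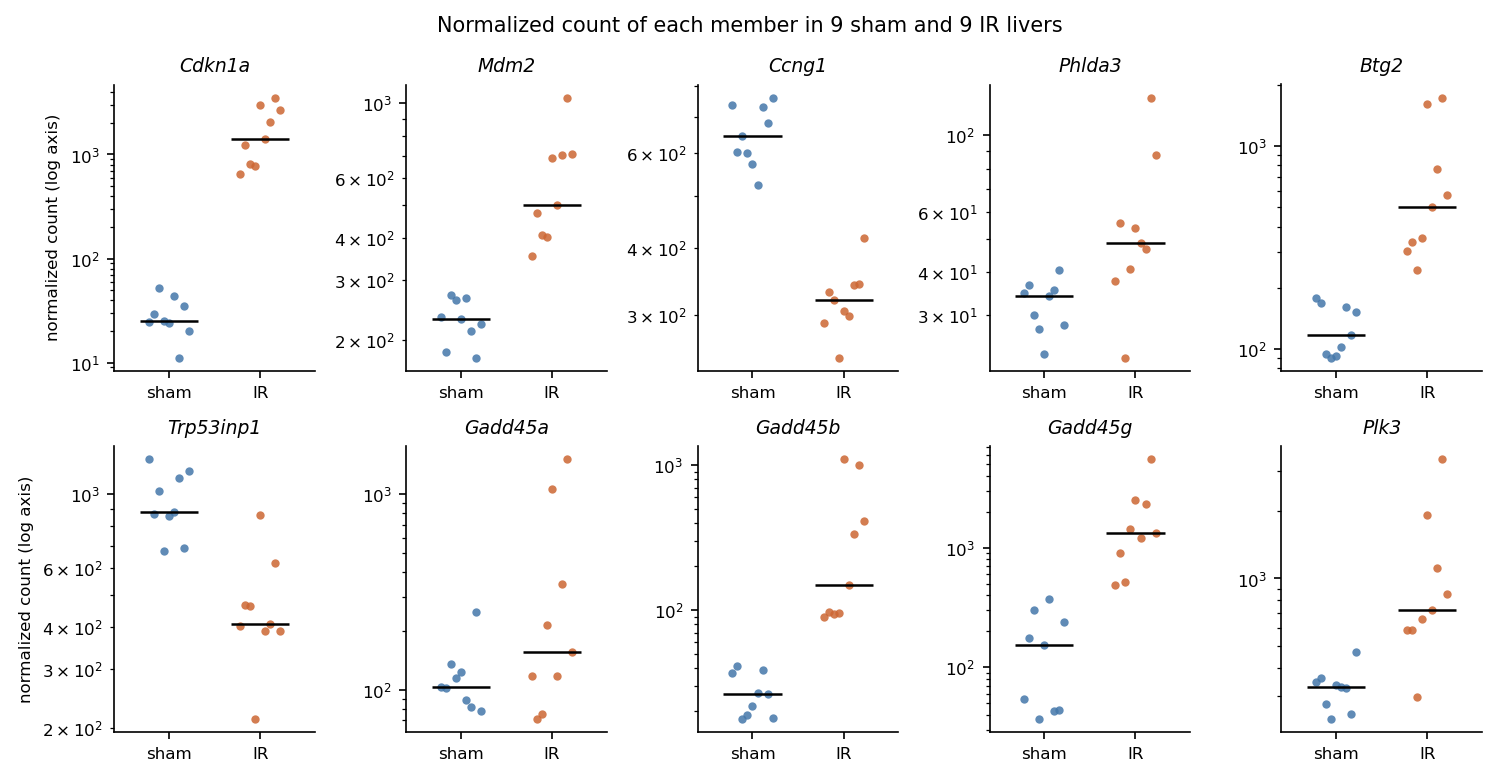
Normalized count (log axis) of each of the 10 genes in 9 sham (blue) and 9 IR (orange) libraries, with 1 point per library and a black line at the group median. Cdkn1a, Mdm2, Btg2, Gadd45b and Gadd45g show no overlap with IR on top, Ccng1 shows none with IR below, and Gadd45a overlaps widely.

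Cdkn1a (ENSMUSG00000023067, plus strand, chr17:29090976-29100727, GRCm38 as for all gene positions) encodes p21. Its normalized count was 650 at the lowest, 1412 at the median and 3527 at the highest in IR, and 11.1, 25.2 and 51.8 in sham. Every IR library exceeded every sham library by more than 10-fold. The mean was 1794 ± 1068 (SD, n = 9) in IR and 29.5 ± 12.3 (SD, n = 9) in sham. The log2 difference was 5.74 ± 0.34 (SE; limma adjusted p = 3.13e-11), a 53.6-fold increase with a 95% confidence interval of 32.5 to 88.4. In the order of increases over all 12686 tested genes Cdkn1a stood at rank 16. The sham levels rest on few reads, 10 in the library with the fewest, so the fold is less precise than the direction. Of the Cdkn1a exon bases 7.68% overlap AC167363.2 on the opposite strand, which has no normalized count here.

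Mdm2 (ENSMUSG00000020184, minus strand, chr10:117688875-117710758) encodes the ligase that targets p53 for degradation. Its normalized count ran from 354 through a median of 500 to 1040 in IR and from 177 through 231 to 270 in sham. The groups did not overlap, but the gap between them was narrow compared with Cdkn1a. This amounted to a log2 difference of 1.29 ± 0.17 (SE; limma adjusted p = 8.48e-07), or 2.44-fold with an interval of 1.91 to 3.12. The within-library log2 ratio of Cdkn1a to Mdm2 was 1.45 ± 0.45 (SD) in IR and -3.01 ± 0.60 in sham. All 9 IR libraries lay above all sham libraries in this ratio. This difference of 4.46 gave p = 4.11e-05 in a two-sided exact permutation test, the smallest that 9 against 9 libraries can give, and 0.000103 after adjustment over the 5 ratios tested.

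Ccng1 (ENSMUSG00000020326, minus strand, chr11:40748552-40755311) encodes cyclin G1, a p53-induced cyclin that binds protein phosphatase 2A. It fell, and its values were the most even of the group. The normalized count was 249, 319 and 418 (lowest, median, highest) in IR and 524, 646 and 761 in sham. All 9 IR libraries lay below all sham libraries. IR differed from sham by -1.02 ± 0.09 on the log2 scale (SE; limma adjusted p = 4.06e-09), which leaves IR at 0.494 of sham. The log2 ratio of Cdkn1a to Ccng1 rose by 6.76 (exact permutation test, two-sided, p = 4.11e-05, adjusted p = 0.000103), and again all 9 IR libraries exceeded every sham library.

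Trp53inp1 (ENSMUSG00000028211, plus strand, chr4:11156431-11174379) encodes a stress protein that takes part in p53 signalling and autophagy. Its normalized count was 212, 409 and 866 in IR and 674, 880 and 1269 in sham. The groups touched at 1 library: IR5, at 866, lay within the sham range and the other 8 IR libraries lay below it. The log2 difference was -1.08 ± 0.19 (SE; limma adjusted p = 4.78e-05). Ccng1 and Trp53inp1 were the only members to fall, and both also fell in each alternative fit.

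Btg2 (ENSMUSG00000020423, minus strand, chr1:134075170-134079120) encodes an antiproliferative cofactor of mRNA deadenylation. Its normalized count was 244, 500 and 1727 in IR and 90.2, 117 and 177 in sham. The groups did not overlap, and IR8 (1727) and IR5 (1606) stood well above the other IR libraries, of which the next, IR7, had 766. On the log2 scale Btg2 rose by 2.16 ± 0.34 (SE; limma adjusted p = 1.29e-05), or 4.48-fold.

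Phlda3 (ENSMUSG00000041801, plus strand, chr1:135766119-135769136) encodes a pleckstrin homology protein that restrains Akt. It was the weakest of the genes that rose. The normalized count was 22.5, 48.7 and 129 in IR and 23.1, 34.2 and 40.6 in sham. Of the IR libraries, 7 lay above the highest sham library and 1, IR3, lay below the lowest. On the log2 scale it rose by 0.69 ± 0.23 (SE; limma adjusted p = 0.0114), or 1.61-fold with an interval of 1.15 to 2.25.

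Plk3 (ENSMUSG00000028680, minus strand, chr4:117128655-117133963) encodes a stress-responsive polo-like kinase. Its normalized count was 299, 728 and 3389 in IR and 237, 332 and 474 in sham. All IR libraries but IR3 (299) exceeded the highest sham library. Its log2 difference was 1.45 ± 0.33 (SE; limma adjusted p = 0.00066), or 2.73-fold. Of its exon bases 3.32% overlap Tctex1d4 on the opposite strand, whose mean normalized count was 1.21.

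The Gadd45 genes encode small paralogous proteins that bind the kinase Map3k4 and interact with Pcna and p21. Gadd45a is the classical p53 target of the family, while Gadd45b and Gadd45g are best known as genes induced by cytokines and growth factors. Gadd45b and Gadd45g were higher in all IR libraries than in any sham library, whereas Gadd45a was far above sham in 2 libraries and did not pass the test.

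Gadd45b (ENSMUSG00000015312, plus strand, chr10:80930073-80932204) had a normalized count of 88.9, 150 and 1102 in IR and of 17.6, 26.3 and 40.8 in sham. The groups did not overlap, and IR5 (1102) and IR8 (997) were far above the IR median. Its log2 difference was 3.09 ± 0.48 (SE; limma adjusted p = 1.09e-05), or 8.53-fold with an interval of 4.24 to 17.2. Without IR5 and IR8, the 2 IR libraries with the highest neutrophil marker sums, it was 2.47, a smaller increase that still passed. They were also the 2 highest in Gadd45b, so leaving them out lowers its difference by construction.

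Gadd45g (ENSMUSG00000021453, plus strand, chr13:51846678-51848468) had a normalized count of 483, 1335 and 5512 in IR and of 36.7, 154 and 374 in sham. It was also the most variable member among sham libraries, the highest being 10.2 times the lowest, but the groups did not overlap. The log2 difference was 3.59 ± 0.55 (SE; limma adjusted p = 1.34e-05), or 12.1-fold with an interval of 5.36 to 27.1.

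Gadd45a (ENSMUSG00000036390, minus strand, chr6:67035096-67037457) had a normalized count of 70.8, 157 and 1514 in IR and of 77.7, 104 and 250 in sham. IR8 (1514), IR5 (1066) and IR7 (347) lay above every sham library, 2 IR libraries lay below every one, and the IR values spanned 21.4-fold. These 3 libraries were also those with the highest neutrophil marker sums, a relation whose part in the result was not tested. The log2 difference was 0.99 ± 0.53 (SE; limma adjusted p = 0.0956), with a 95% confidence interval of -0.12 to 2.09. The call depended on the fit. On recovered reads the log2 difference was 1.75 with edgeR (adjusted p = 0.00998) and 1.77 with DESeq2 (adjusted p = 0.00235), whereas limma without IR5 and IR8 gave 0.27 (adjusted p = 0.423). It also passed in limma with scaling by library total (1.23, adjusted p = 0.0496), without IR2 (1.19, adjusted p = 0.0433) and without IR3 (1.18, adjusted p = 0.0493), while it was 0.64 without IR8 and 0.53 with array weights, neither of which passed. Of its exon bases 19.1% overlap E230016M11Rik on the opposite strand (mean normalized count 10.2), and no source used here gives whether counting used strand.

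Within libraries, the Gadd45 paralogues moved by unequal amounts. The log2 ratio of Gadd45b to Gadd45a was 0.03 ± 0.72 (SD) in IR and -2.07 ± 0.74 in sham, a difference of 2.10 (exact permutation test, two-sided, p = 8.23e-05, adjusted p = 0.000137), with 8 of 9 IR libraries above every sham library. The log2 ratio of Gadd45g to Gadd45a differed by 2.60 (exact permutation test, p = 0.000329, adjusted p = 0.000411), with 6 of 9 above. Gadd45b against Gadd45g differed by -0.50 (exact permutation test, p = 0.392, adjusted p = 0.392), so no unequal change of these paralogues was detected.

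**Figure D2:**
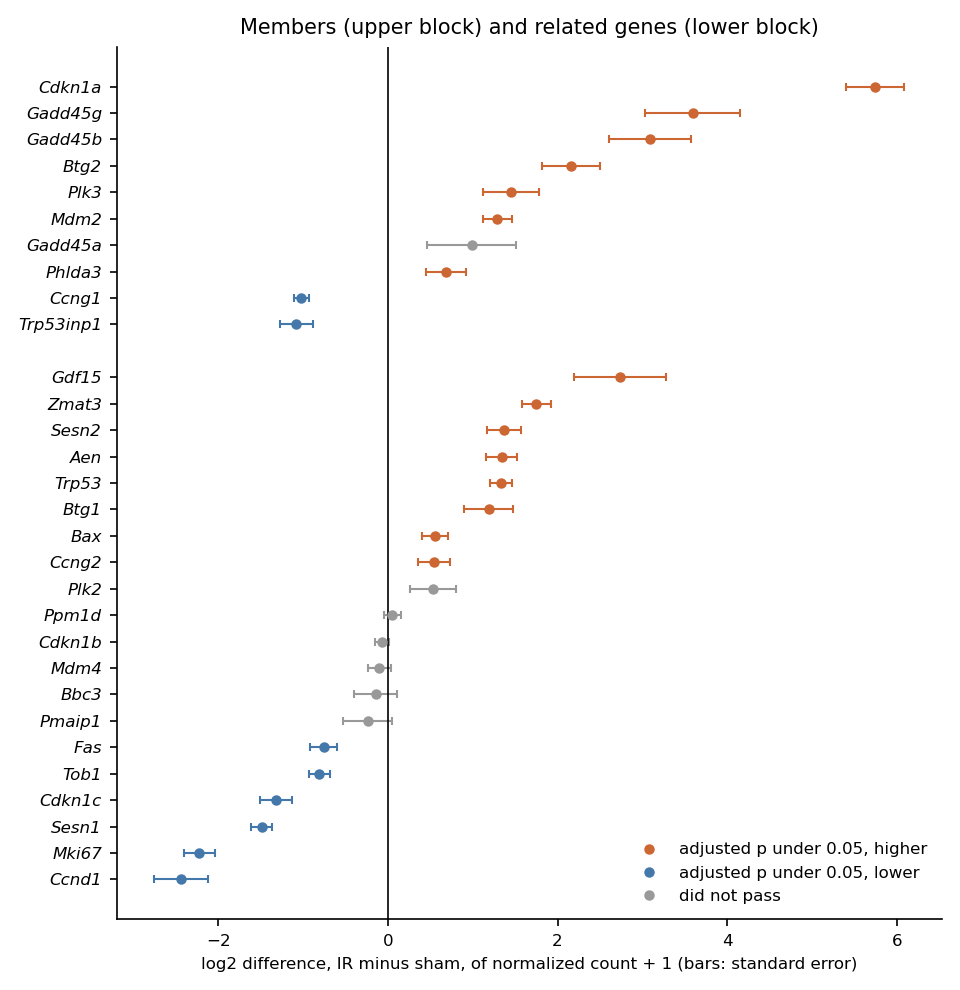
Log2 difference (IR minus sham, of normalized count + 1) with its standard error for the 10 members (upper block) and for related genes named below (lower block), with orange for higher, blue for lower and grey for genes that did not pass an adjusted p of 0.05. Cdkn1a at 5.74 stands apart, Ccng1 and Trp53inp1 lie near -1, and Gadd45a has one of the widest errors.

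Levels per kilobase of exon allow the genes to be ranked within a surgery. In sham, median normalized counts per kilobase were highest for Ccng1 (184), Trp53inp1 (136), Plk3 (131) and Gadd45g (131), followed by Gadd45a (59.0), Mdm2 (45.4), Btg2 (42.8), Phlda3 (21.9), Gadd45b (16.6) and, last, Cdkn1a (7.09). In IR the order began with Gadd45g (1138), Cdkn1a (397), Plk3 (287) and Btg2 (182), then Mdm2 (98.3), Gadd45b (94.2), Ccng1 (90.9), Gadd45a (89.1), Trp53inp1 (63.1) and Phlda3 (31.2). Cdkn1a thus moved from the lowest level to the second, and the 2 genes with the highest sham levels moved to the lower part. Ranges of neighbours in the order overlapped in 8 of 9 pairs in sham, with Btg2 and Phlda3 the exception, and in 9 of 9 in IR.

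The IR livers also differed among themselves. On the log2 scale, 9 of 10 members were more spread in IR than in sham, the exception being Gadd45g (SD 1.12 against 1.32). The same share of all tested genes is not given here, so this is not shown to be particular to the members. Over all genes with enough reads, chi-square per degree of freedom between 2 libraries ran from 12.7 to 159 in IR and from 7.86 to 63.3 in sham. IR8 had the highest value of 7 members and the second highest of the other 3. IR5 was highest for 2 and second for 5. IR1 had the lowest value of 4 members and IR3 of 3. Whether these differences follow genotype could not be examined.

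Over the 9 IR libraries, Mdm2 followed Cdkn1a closely (r = 0.96, rho = 0.95, exact permutation p = 3.58e-05 for r, adjusted p = 0.000322), and so did Gadd45b (r = 0.94, rho = 0.97, exact permutation p = 3.58e-05, adjusted p = 0.000322). Btg2 (r = 0.90, rho = 0.90), Gadd45g (r = 0.84, rho = 0.80), Plk3 (r = 0.84, rho = 0.85) and Phlda3 (r = 0.80, rho = 0.80) also passed, with exact permutation p-values adjusted over 18 relations of 0.00503, 0.0152, 0.00924 and 0.0152. Gadd45a (r = 0.74, rho = 0.70), Ccng1 (r = 0.63, rho = 0.70) and Trp53inp1 (r = 0.62, rho = 0.53) did not, with exact permutation adjusted p-values for r of 0.0612, 0.137 and 0.137. Even the members that were lower in IR thus had positive coefficients. Without the 2 libraries farthest from the median of Cdkn1a, only Mdm2 (r = 0.97, exact permutation adjusted p = 0.0232) and Gadd45b (r = 0.93, adjusted p = 0.00714) still passed. Over these 7 libraries the coefficients of the other 4 were 0.86 for Btg2 (exact permutation adjusted p = 0.05), 0.82 for Plk3, 0.73 for Phlda3 and 0.70 for Gadd45g, and with fewer libraries a lost call does not show that a relation is absent. In sham none of the 9 relations passed (r from -0.52 to 0.53). Whether the coefficients differ between surgeries was not tested. The share of all tested genes with such coefficients to Cdkn1a is not given here, so the relations are not shown to be particular to the members. The neutrophil marker sum was also highest in libraries with much Cdkn1a (IR8, IR5 and IR7), although IR9, the third in Cdkn1a at 2703, had the median sum of 1221, and its part in these relations was not tested.

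**Figure D3:**
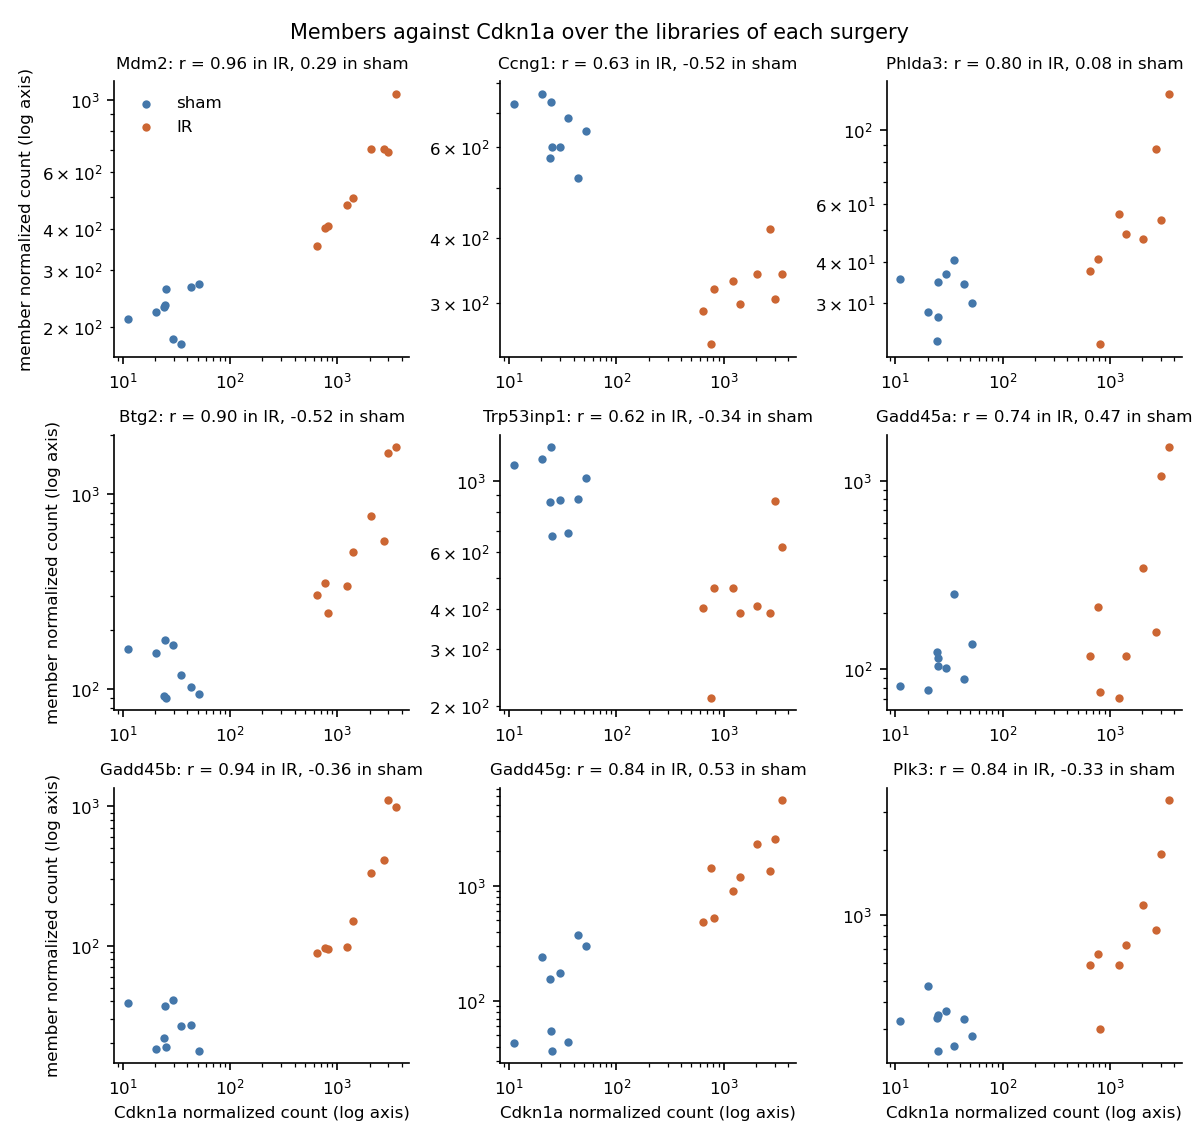
Normalized count of 9 members against that of Cdkn1a (both log axes), 1 point per library, with IR in orange and sham in blue and Pearson's r of each surgery above the panel. Mdm2 (0.96) and Gadd45b (0.94) follow Cdkn1a most closely among the IR libraries, while sham coefficients run from -0.52 to 0.53.

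Across all tested genes, the patterns most like Cdkn1a were those of Rrp12 (r = 0.94), Pde12 (0.92), Nolc1 (0.92), Pgs1 (0.91) and Trmt61a (0.90). Likeness here is Pearson's r over 18 libraries of the deviations from each group's mean, given as a description.

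Among 50 further p53 targets and regulators, 45 were tested. Of these, 22 were higher, 13 lower and 10 did not pass, with a median log2 difference of 0.42 against 0.02 over all genes. Among all tested genes 38.3% were higher and 37.6% lower. The median of the list was 0.18 without IR5 and IR8, with 21 higher and 12 lower, and 0.23 with array weights. With libraries scaled by their total, which shifts the median of all genes to 0.25, 25 were higher and 7 lower. Trp53 itself, the gene for p53, rose from a median normalized count of 150 in sham to 357 in IR, by 1.33 ± 0.13 on the log2 scale (SE; limma adjusted p = 7.42e-09). Its other negative regulators did not pass: Mdm4 differed by -0.10 (limma adjusted p = 0.507) and the phosphatase gene Ppm1d by 0.05 (adjusted p = 0.635), although Ppm1d passed as higher with library-total scaling (0.29, adjusted p = 0.0444).

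Several genes of this list encode apoptosis proteins. Bax, which permeabilizes mitochondria, rose by 0.56 (limma adjusted p = 0.00237), and the exonuclease gene Aen by 1.34 (adjusted p = 1.49e-06). Bbc3 (-0.14, adjusted p = 0.607) and Pmaip1 (-0.24, adjusted p = 0.46), which encode the BH3-only proteins Puma and Noxa, did not pass. The death receptor gene Fas fell by 0.76 (limma adjusted p = 0.000201). Tnfrsf10b, another death receptor gene (2.02), Pidd1 (1.39) and Apaf1 (0.79) rose and Perp fell by 0.31. These 4 were added after their values were seen. Tnfrsf10b had a sham mean of 3.80 and reached the filter mean of 10 only through IR. Perp did not pass with library-total scaling (-0.07, limma adjusted p = 0.499) or quantile normalization (-0.12, adjusted p = 0.193). Zmat3, an RNA-binding p53 target, rose by 1.75 (limma adjusted p = 9.74e-09). The sestrins split: Sesn2 rose from a median of 68.0 to 161 (log2 difference 1.37, limma adjusted p = 2.39e-06) and Sesn1 fell from 246 to 91.9 (-1.49, adjusted p = 1.41e-09), both without overlap of the groups. Gdf15, a stress cytokine, rose by 2.74 (limma adjusted p = 0.00018), with IR values from 73.4 to 1588. Ier3 (4.26) and Lif (4.16) were among the genes of this list with the steepest increases, and the steepest decreases were those of Dcxr (-1.61), Sesn1 and Ckap2 (-1.31).

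Of 15 tested close relatives of the members, 5 were higher, 5 lower and 5 did not pass, which is near the 38.3% higher and 37.6% lower of all tested genes. There were 3 higher and 5 lower without IR5 and IR8, and 7 higher and 5 lower with library-total scaling. Cdkn1b, which encodes p27 and is a paralogue of Cdkn1a, differed by -0.06 (limma adjusted p = 0.489), and Cdkn1c, which encodes p57, fell by 1.32 (adjusted p = 2.15e-06). Ccng2, the paralogue of Ccng1, was higher by 0.54 (limma adjusted p = 0.0136), opposite to Ccng1, but did not pass without IR5 and IR8 (0.35, adjusted p = 0.0516). Btg1 (1.19) and Btg3 (2.65), paralogues of Btg2, rose, and Tob1 of the same family fell by 0.81 (limma adjusted p = 4.86e-06). Plk2 did not pass in limma (0.53, adjusted p = 0.0842) but did so with edgeR (0.75, adjusted p = 0.0265), whereas Plk4 (-0.96) and Plk5 (-0.94) fell. Trp53inp2 rose by 0.58, opposite to Trp53inp1.

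Other cell cycle inhibitors changed in both directions between sham and IR. Of 16 inhibitors and quiescence genes tested, 11 were lower, among them Gas1 (-1.74), Gas2 (-1.72) and Cdkn2c (-1.69), and 3 were higher: Btg1, Ccng2 and Tob2 (0.38). These counts compare with 37.6% of all tested genes lower and 38.3% higher. With library-total scaling 8 were lower and 4 higher, and without IR5 and IR8 10 were lower and 1 higher. Tob2 did not pass without IR5 and IR8 (0.24, limma adjusted p = 0.123), nor when any one of IR2, IR5, IR8, IR9, W4, W5, W7 and W9 was left out (0.27 to 0.37). Of 21 cell cycle drivers tested, 13 were lower and 4 higher, and 9 of the lower ones showed no overlap of the groups, against 37.6% lower, 38.3% higher and 20.3% lower without overlap among all tested genes. With library-total scaling 11 were lower and 7 higher. Among the 10 drivers with a mean of at least 100, 4 were lower and 4 higher, with a median log2 difference of -0.12. Cdk1 fell from a median of 83.9 to 7.73 (log2 difference -3.15, limma adjusted p = 1.36e-11), Mki67 from 84.3 to 12.9 (-2.22, adjusted p = 1.20e-09), Top2a by 2.40 and Ccnd1 by 2.44. Cdk6 (0.55) and Ccnd3 (0.35) rose, and Myc was higher by 1.45 (limma adjusted p = 0.0148) but did not pass without IR5 and IR8 (0.85, adjusted p = 0.0557). Proliferating cells of any type contribute these transcripts. Summed markers of lymphocytes and NK cells (12 in the list) were 23.9 to 66.1 in IR against 158 to 286 in sham. All 7 tested markers were lower, as were 10 of 12 without the filter on the mean. Summed markers of monocytes and macrophages were 2995 to 5157 in IR against 7570 to 10715 in sham. Of the 12 monocyte and macrophage markers, however, 7 were lower and 4 higher, with Itgam rising most (3.30). The part of these cell types in the differences of cell cycle genes was not tested.

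**Figure D4:**
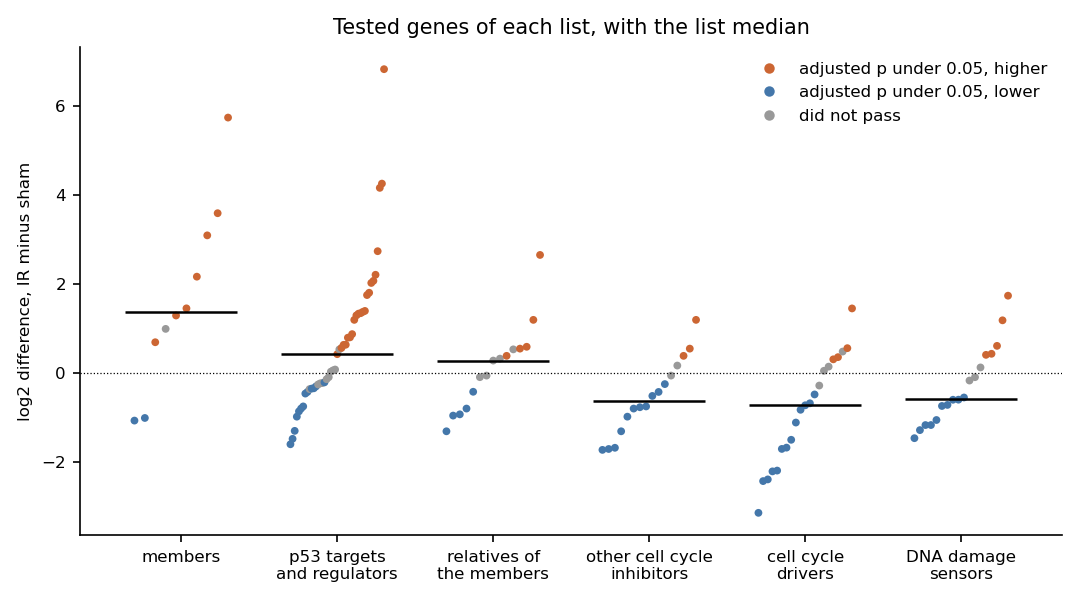
Log2 difference (IR minus sham) of every tested gene in 6 lists, ordered within each list, with a line at the list median and the colours of the previous plots. Members have a median of 1.37 and p53 targets and regulators 0.42, while cell cycle drivers (-0.73), other inhibitors (-0.64) and DNA damage sensors (-0.58) lie below 0. For genes with a mean of at least 100, the medians were -0.12 for drivers, -0.51 for other inhibitors and -0.10 for sensors.

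Of 18 DNA damage sensors and kinases, which act upstream of p53, 10 were lower and 5 higher, against 37.6% and 38.3% of all tested genes. With library-total scaling 8 of these were lower and 6 higher. Among the 7 with a mean of at least 100, 2 were lower and 3 higher, with a median log2 difference of -0.10. Atm (-1.47), Chek2 (-1.29) and Brca2 (-1.18) fell, while H2afx (1.73), Rad9a (1.18) and Trp53bp1 (0.61) rose. Of 10 stress kinases that act with the Gadd45 proteins, 3 rose, 4 fell and 3 did not pass, close to the shares of all tested genes, and with library-total scaling 6 were higher and 2 lower. The p38 activator Map2k6 fell from a median of 122 to 15.7 (log2 difference -2.83, limma adjusted p = 1.79e-10), and Map2k7, an activator of JNK, rose by 0.94. Map3k4, the direct partner of the Gadd45 proteins, rose by 0.44 and p38 alpha (Mapk14) by 0.35. The JNK genes Mapk8 (-0.94) and Mapk9 (-0.26) fell, although Mapk9 did not pass with library-total scaling (-0.02).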

How the data were processed

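The labels' protocols give Trizol extraction and an NEBNext Ultra library kit. Per the submitters' processing notes, Trimmomatic 0.33, STAR 2.5.0a and DESeq2 1.14 were used with GRCm38; no read counter, annotation or strand setting is given in the sources used here. The authors deposited 1 table of counts divided by DESeq2 size factors, a normalized signal and not raw counts. In every column 100% of values were whole multiples of the column's step (within 0.01 reads), so reads were recovered; edgeR on these called 4923 genes higher and 4763 lower. For column W1 the step is close to 1, so recovery there is less certain.

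The main test was limma 3.58.1 (R 4.3.3; trend, robust) on log2(normalized count + 1) for genes with a mean of at least 10, with Benjamini-Hochberg adjustment and a threshold of 0.05. edgeR 4.0.16, DESeq2 1.42.0, other scalings, filters, pseudocounts and leaving out libraries were alternatives. Ratios and correlations used exact permutations (SciPy 1.17.1, Python 3.11.15). The fit was tested on simulated data. The labels give no batch. No pair of libraries agreed within sampling noise.

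The members and lists were chosen with earlier results of these data known. Named genes are the members, 20 list genes named whatever they did, up to 3 called genes per pathway list and direction with the largest difference, and the 5 genes most like Cdkn1a. One gene that this rule names is not reported here. Exon lengths are unions of GENCODE vM21 exons.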

Additional observations from a re-analysis of the deposited data

Results flagged for a closer look

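Gadd45a in sham library W8 had a normalized count of 250.2, apart from the other 8 sham libraries, of which the highest had 136. On the log2 scale after adding 1, the gap made up 0.525 of the sham range, above Dixon's limit of 0.493 for 9 libraries. It was the only one flagged among 20 groups of member values and 10 groups of ratios, and chance flags about 1 in 20 groups. Without W8 the log2 difference of Gadd45a was 1.13 (limma adjusted p = 0.0637).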

How the results depend on the processing

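The 9 members called in limma kept their direction in every alternative in which they were tested, and also their call, except that Phlda3 is under the 2-fold threshold; Phlda3 was not tested at a mean of at least 100. Their log2 differences ran from 5.33 to 5.98 for Cdkn1a, 1.11 to 1.53 for Mdm2, -1.07 to -0.78 for Ccng1, 0.49 to 0.92 for Phlda3, 1.71 to 2.54 for Btg2, -1.29 to -0.84 for Trp53inp1, 2.47 to 3.84 for Gadd45b, 3.18 to 3.83 for Gadd45g and 1.01 to 1.79 for Plk3. Gadd45a ran from 0.27 to 1.77 and passed in 8 alternatives. A threshold of at least 2-fold left 1972 genes higher and 2155 lower. Scaling by library total raised the share of calls that were higher from 50.4% to 61.7%. Of the relations to Cdkn1a in IR, 6 passed, 2 did without the 2 farthest libraries, and all 9 did with library-total scaling. With the header number as replicate block, 4818 genes were higher and 4737 lower, and Gadd45a passed (0.99, limma adjusted p = 0.0404). Deviations of same-numbered IR and W libraries correlated between -0.10 and 0.12 and none matched its own number best, so the numbers were not treated as pairs. Leaving out IR5 and IR8, and the count fits without W1, were chosen after seeing the data. IR5 and IR8 were picked as the 2 IR libraries with the highest neutrophil marker sums. They also held the highest values of most members, so leaving them out shifts those differences down by construction. Sham counts of Cdkn1a down to 10 reads limit the precision of its fold.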
